A study of Homo sapiens with 6 samples.

Results

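The 41 genes described here encode integrin subunits and the proteins that connect them to the cell interior at focal adhesions. They comprise 15 alpha subunits, 8 beta subunits and 18 linkers, the linkers being 3 kinases, 4 talins and kindlins, 5 proteins of the ILK, PINCH and parvin group, 4 adaptors and 2 caveolins. The genes were chosen by symbol, with earlier results of these data known, and all 41 were found among the 29908 Ensembl genes of the table. Their mRNA levels were compared between Hep3B-Con and Hep3B-KD cells, with attention to how ITGB1, the common beta subunit, moved against its alpha partners. Hep3B is an established cell line from a human hepatocellular carcinoma. Hep3B-Con cells had received a control lentivirus, which the sample titles call shControl and the design text calls an empty vector. Hep3B-KD cells had received a lentivirus with a short hairpin RNA against DAGLA (shDAGLA), the gene of diacylglycerol lipase alpha, an enzyme that makes an endocannabinoid lipid. Both groups were infected at the same multiplicity, selected with puromycin for stable carriers and grown with serum, so the controls share the virus and the drug. The model is limited to 1 cell line and 1 hairpin, and each group has 3 libraries. The libraries are called biological replicates, but nothing states that they came from separate cultures, so p-values measure only the spread between these samples.

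Library totals ranged from 15861039 to 17572714 reads, recovered from FPKM (reads scaled by exon length and library total), and replicates differed by more than counting noise. DAGLA was at 9.42, 9.40 and 9.02 FPKM in the Hep3B-Con libraries and at 4.62, 4.46 and 4.78 FPKM in the Hep3B-KD libraries, so the Hep3B-KD values were all below the Hep3B-Con values, as the labels name them. All 10 hepatocyte markers examined were at 0.5 FPKM or more on average, and they summed to between 5155 and 5279 FPKM in Hep3B-Con and between 7985 and 8104 FPKM in Hep3B-KD, although HNF4A and FGB among them fell (-0.35 and -0.96 on the log2 scale, limma adjusted p = 1.64e-05 and 5.73e-06). Of 6 endothelial markers 0 reached 0.5 FPKM (sums of 0.203 to 0.217 and 0.287 to 0.394), and of 7 fibroblast markers 3 did (sums of 9.29 to 10.2 and 5.48 to 5.96), with COL3A1 and DCN at 2 reads or fewer in every library. The 3 were LUM, PDGFRB and COL1A1, and all were called lower in Hep3B-KD. Their log2 fold changes were -0.86, -0.32 and -1.20 (limma adjusted p = 6.88e-05, 0.00447 and 0.00720). The 4 leukocyte markers in the table, of 6 examined, summed to between 2.83 and 4.47 FPKM in Hep3B-Con and between 4.0 and 4.83 FPKM in Hep3B-KD. Of these, 2 reached 0.5 FPKM, CD14 and LYZ (24 to 42 and 64 to 113 reads), and PTPRC was at 6 reads or fewer. The only platelet marker in the table, GP1BA, was at 31 reads or fewer. The part of these shifts in the results was not tested. In bulk RNA, fewer cells of a type and less RNA per cell cannot be told apart.

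An integrin is a pair of transmembrane proteins, an alpha and a beta subunit, that binds collagen, laminin, fibronectin or vitronectin outside the cell. Beta subunits are shared: ITGB1 pairs with many alpha subunits, ITGAV pairs with several beta subunits, and the pair decides which ligand is bound. Inside the cell, talin and kindlin bind the beta tail and activate the receptor, and ILK, PINCH, parvin, paxillin, tensin and focal adhesion kinase assemble on it and connect it to actin. Unpaired subunits are retained in the cell, which is why the levels of the beta subunit and its alpha partners are read side by side. Hepatocytes are known for alpha1 beta1 and alpha5 beta1 integrins, and liver cancer cells for additional laminin and vitronectin receptors.

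The largest falls in Hep3B-KD were in ITGB1, the common beta subunit, in TLN1, the main talin, and in PARVB, a parvin, and the largest rises in TLN2, TNS3 and ITGAV. Of the 41 genes, 27 reached a mean of 0.5 FPKM over the 6 libraries and were tested. Among those 27, 13 rose and 8 fell in Hep3B-KD at an adjusted p under 0.05 (limma with Benjamini-Hochberg adjustment over the 14221 genes tested), and 6 did not pass. The share called was 77.8%, against a background of 59.9% of all genes tested, with 36.1% called higher and 23.8% called lower. With a fold change of at least 2 added, 4 passed, 3 lower (ITGB1, TLN1, PARVB) and 1 higher (TLN2), against a background of 8.83% (2.94% lower and 5.89% higher). In 21 of the 27 the groups did not overlap, 13 with Hep3B-KD above and 8 with it below, against 66.9% of all genes. Over the 27 the log2 fold change had a median of 0.04, against 0.11 over all genes tested, and its size regardless of sign a median of 0.27, against 0.35. The counts in each direction therefore depended on scaling: when each library was centred on its median log ratio, 7 of the 27 were called higher and 10 lower, and all genes split into 4064 higher and 4308 lower in place of 5133 and 3388. The 13 rises became 8 without Hep3B-Con replicate 1, 8 without Hep3B-KD replicate 1 and 7 without Hep3B-KD replicate 2. All 8 falls were kept under each of the 16 alternatives. ITGB6 and PTK2B reached the mean of 0.5 FPKM only through the Hep3B-KD libraries, so the filter itself favoured a rise in them.

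**Figure D1:**
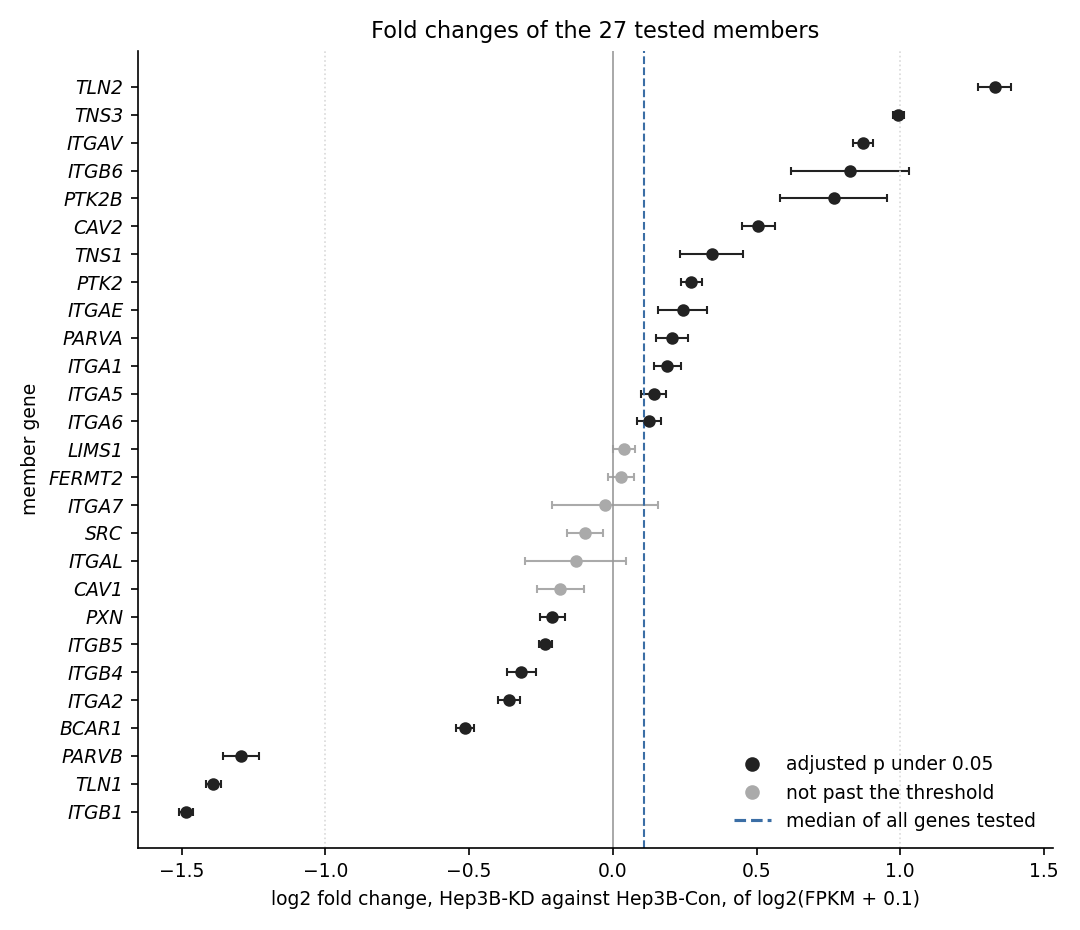
Log2 fold change of log2(FPKM + 0.1), Hep3B-KD against Hep3B-Con, for the 27 tested genes, with points at the limma estimate, bars of 1 standard error, black for an adjusted p under 0.05 and gray otherwise; dotted lines mark a fold change of 2 and the dashed line the median of all genes tested. ITGB1, TLN1 and PARVB lie below -1 and TLN2 above 1, with TNS3 at 0.99 just inside.

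As background, the guide strand of a short hairpin RNA can also pair through its seed (bases 2 to 8) with the 3′ UTR of other mRNAs, so these genes were searched for such matches. Which strand of the hairpin serves as guide is not stated, and the reverse complement of the target was taken as the guide. The hairpin's target, the guide strand complementary to it and the matches in tested genes are printed here, 5′ to 3′, with the seed or its match in capitals and 30 bases of mRNA around each match.
shDAGLA target: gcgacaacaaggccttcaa
shDAGLA guide: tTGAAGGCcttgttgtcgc
ITGB1: gtaacttttatGCCTTCActttacaaattc
TLN1: caaccccaagtGCCTTCAtgccctagggcc
PARVB: agcgatcacagGCCTTCAgaagtacaacat
TLN2: ctggtttctgtGCCTTCAgaatggtcacaa
ITGA1: ccatggagtgtGCCTTCAcgcgggggaatg
The full target was found in transcripts of DAGLA and of 0 other genes in GENCODE release 29. The letters GCCTTCA, searched on the mRNA strand in the longest 3′ UTR of each gene's basic transcript set, occurred once each in 5 of the 27 tested genes (18.5%) and in 1601 of 11174 tested genes with a 3′ UTR (14.3%). In GRCh38 the windows lie at chr10:32900889-32900918 (ITGB1, minus strand), chr9:35697590-35697619 (TLN1, minus strand), chr22:44169070-44169099 (PARVB, plus strand), chr15:62841502-62841531 (TLN2, plus strand) and chr5:52956187-52956216 (ITGA1, plus strand).

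The 4 genes past both thresholds each held a match, 3 of them lower and 1 higher in Hep3B-KD. The share with a match among all genes past both thresholds was not taken. Of the 5 with a match, 3 fell (ITGB1, TLN1, PARVB) and 2 rose (TLN2, ITGA1), over a range of log2 fold changes from -1.48 to 1.33. Of the 22 without a match, 11 rose, 5 fell and 6 did not pass, over a range from -0.51 to 0.99. Only coding transcripts of the basic set with a 3′ UTR were counted. Of these, all 3 of ITGB1 carried the match, as did the 1 each of TLN1 and ITGA1, 3 of 4 of PARVB and 2 of 3 of TLN2. Long 3′ UTRs hold more matches by length alone. Among genes with a 3′ UTR of similar length (0.8 to 1.2 times), 11.5% held a match at the length of ITGB1, 6.93% at that of TLN1, 28.98% at that of PARVB, 27.2% at that of TLN2 and 34.4% at that of ITGA1. In those same length classes genes with a match had, against those without, median log2 fold changes of -0.16 against 0.12 for ITGB1, -0.29 against 0.06 for TLN1, 0.05 against 0.23 for PARVB, 0.03 against 0.23 for TLN2 and 0.16 against 0.29 for ITGA1. The classes of PARVB and TLN2, with 3′ UTRs of 4271 and 4021 bases, overlap largely in length, so their comparisons are not separate results. The part of the seed in the falls was not tested, and with 1 hairpin it cannot be told apart from the loss of DAGLA. Of the genes under the filter, ITGA8 and ITGA9 also held a match.

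Among beta subunits, ITGB1 fell most. ITGB1 (chr10:32900319-33005792, minus strand, GRCh38) was at 157, 162 and 163 FPKM in Hep3B-Con and at 58.1, 56.0 and 58.0 FPKM in Hep3B-KD. The replicates of each group were tight and far apart from the other group, which corresponded to a log2 fold change of -1.48 (SE 0.0236, limma adjusted p = 1.25e-07), a 2.80-fold lower level. It was the most abundant of the 41 genes in Hep3B-Con and ranked behind 218 genes of 14221 for the size of its fall. ITGB5, which pairs with ITGAV to bind vitronectin, was at 40.7, 41.4 and 42.4 FPKM and at 35.1, 35.3 and 35.4 FPKM. The 2 groups of ITGB5 values did not overlap, but the fall was small, at -0.24 (SE 0.0226, limma adjusted p = 0.000142). ITGB4, the partner of ITGA6 in the laminin receptor of hemidesmosomes, fell by 0.32 on the log2 scale (limma adjusted p = 0.00156), from 8.79 ± 0.152 to 7.04 ± 0.416 FPKM (SD, n = 3).

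ITGB6, another partner of ITGAV, was the only tested beta subunit that rose in Hep3B-KD. It was at 0.510, 0.565 and 0.410 FPKM in Hep3B-Con and at 0.834, 1.12 and 0.913 FPKM in Hep3B-KD, or 32 to 84 reads a library. All Hep3B-KD values were above all Hep3B-Con values, with a log2 fold change of 0.83 (SE 0.206, limma adjusted p = 0.0122), and the adjusted p was 0.0517 without Hep3B-KD replicate 2 and 0.0701 with quantile normalization. Of the exonic bases of ITGB6, 20.6% lie in exons of another gene. The remaining beta subunits were near the floor. ITGB2, the beta subunit of leukocytes, had 2 to 10 reads a library, ITGB3 of platelets 3 to 16, and ITGB8, a further partner of ITGAV, 0 to 5. ITGB7, also of leukocytes, had 0 reads in each Hep3B-Con library, which allows up to 3 reads a library (counting error only), and at most 3 reads in Hep3B-KD. Levels of ITGB3 and ITGB7 are uncertain, since 51.6% and 42.1% of their exonic bases are shared with other genes.

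The 8 beta subunits together summed to 212 ± 3.70 FPKM in Hep3B-Con and 100.8 ± 1.39 FPKM in Hep3B-KD (SD, n = 3), a ratio of 0.476. ITGB1 made up 75.9% ± 0.143 of this sum in Hep3B-Con and 56.9% ± 0.574 in Hep3B-KD. The share of ITGB5 was 19.6% ± 0.161 and 35.0% ± 0.489, and that of ITGB4 4.15% ± 0.119 and 6.98% ± 0.333. Thus ITGB5 and ITGB4 took a larger share of the beta mRNA in Hep3B-KD although both fell.

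**Figure D2:**
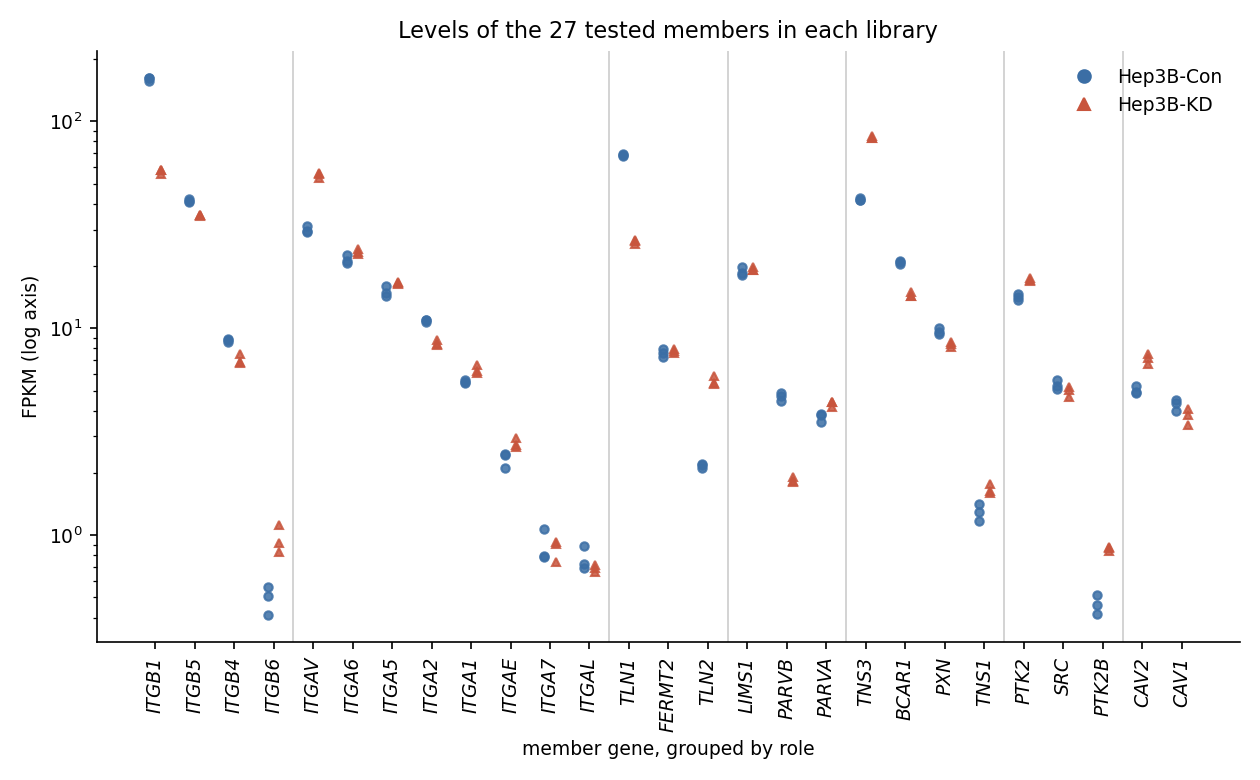
FPKM on a log axis of the 27 tested genes in each library, grouped by role (beta subunits, alpha subunits, talins and kindlins, ILK group, adaptors, kinases and caveolins, left to right), with circles for the 3 Hep3B-Con and triangles for the 3 Hep3B-KD libraries. ITGB1 at 157 to 163 FPKM in Hep3B-Con is the highest gene, and in Hep3B-KD TNS3 at 82.8 to 85.2 FPKM stands above it.

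Of 15 alpha subunits 8 were tested, of which 5 rose, 1 fell and 2 did not pass, against 36.1% of all genes called higher and 23.8% called lower. After centring on the median log ratio, 1 alpha subunit was called higher and 1 lower. ITGAV (chr2:186590065-186680901, plus strand), the alpha subunit of the vitronectin receptors, was at 29.7, 31.3 and 29.3 FPKM in Hep3B-Con and at 55.6, 56.5 and 53.2 FPKM in Hep3B-KD. The groups were well separated, with a log2 fold change of 0.87 (SE 0.0357, limma adjusted p = 3.88e-06), or 1.83-fold higher. ITGA2, a collagen receptor subunit, was the sole tested alpha subunit called lower, from 11, 10.7 and 11 FPKM to 8.78, 8.27 and 8.37 FPKM. Its values did not overlap between groups, and the log2 fold change was -0.36 (SE 0.0374, limma adjusted p = 0.000201). Both of these calls held under each of the 16 alternatives.

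The other called rises were small. ITGA1, which pairs with ITGB1 to bind collagen and laminin, was at 5.43, 5.66 and 5.47 FPKM and at 6.64, 6.2 and 6.1 FPKM (log2 fold change 0.19, limma adjusted p = 0.0128). ITGA5, the alpha subunit of the fibronectin receptor, was at 15.04 ± 0.827 and 16.6 ± 0.147 FPKM (log2 fold change 0.14, limma adjusted p = 0.0273). ITGA6, a laminin receptor subunit, was at 21.5 ± 1.03 and 23.4 ± 0.656 FPKM (log2 fold change 0.13, limma adjusted p = 0.0374). In all 3 of these genes the Hep3B-KD values lay above the Hep3B-Con values, but these values were close to the 0.11 that all genes showed at the median, and centring on the median log ratio ended the calls (limma adjusted p of 0.162, 0.480 and 0.676). The call of ITGA5 was also lost without Hep3B-Con replicate 1 or 3 or without any of the Hep3B-KD replicates, with limma adjusted p between 0.0590 and 0.0761. That of ITGA6 was lost without Hep3B-Con replicate 1 or 3 or Hep3B-KD replicate 1 or 2, with limma adjusted p between 0.0831 and 0.111.

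ITGAE, which pairs with ITGB7 on leukocytes to bind E-cadherin, was at 2.33 ± 0.194 FPKM in Hep3B-Con and 2.78 ± 0.144 FPKM in Hep3B-KD (log2 fold change 0.24, limma adjusted p = 0.0434). Its groups did not overlap, but the call was lost without each one of the 6 libraries in turn, with limma adjusted p between 0.0505 and 0.124. ITGA7, a laminin receptor subunit of muscle, was at 0.883 ± 0.164 and 0.859 ± 0.102 FPKM and ITGAL, the partner of ITGB2 on leukocytes, at 0.768 ± 0.105 and 0.691 ± 0.0273 FPKM. Neither passed the test (limma adjusted p = 0.907 and 0.556), and in both the groups overlapped. Reads of a further 7 alpha subunits were few. ITGA3, a laminin receptor subunit, was at 0.366, 0.305 and 0.282 FPKM against 0.135, 0.0635 and 0.117 FPKM, and ITGA4, which binds fibronectin and VCAM1, at 0.151, 0.167 and 0.190 FPKM against 0.0319, 0.0394 and 0.0610 FPKM. The Hep3B-KD values of both were below the Hep3B-Con values, and in a fit with no filter both were called lower (limma adjusted p = 0.0357 and 0.0270) on 10 to 63 and 4 to 25 reads a library. ITGA2B of platelets (6 to 16 reads), ITGA8 (0 to 1), ITGA9 (0 to 5), ITGA10 (2 to 11) and ITGA11 (0 to 4) overlapped between the groups.

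The ratio of ITGB1 to its alpha partners was set side by side within each library, where any scaling of a library cancels. ITGB1 is known to pair with 12 of the alpha subunits, of which 6 (ITGA1, ITGA2, ITGA5, ITGA6, ITGA7 and ITGAV) were tested. The 6 summed to 82.6, 87.0 and 82.1 FPKM in Hep3B-Con and to 113, 112 and 108 FPKM in Hep3B-KD. There were accordingly 1.90, 1.86 and 1.98 FPKM of ITGB1 for each FPKM of these partners in Hep3B-Con, and 0.516, 0.50 and 0.538 in Hep3B-KD. In FPKM, ITGB1 was thus above the sum of these partners in every Hep3B-Con library and below it in every Hep3B-KD library. FPKM of different genes depend on the exon lengths used, 6011 bases for ITGB1 and 8211 for ITGAV. ITGAV and ITGA6 also pair with other beta subunits. A ratio above or below 1 is therefore not an excess or a shortage of ITGB1, and only the change between the groups is read. The log2 ratio differed by -1.89, which is 3.70-fold lower, and with all 12 partners in the sum by -1.88.

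Each of the 6 tested partners gave a lower ratio in Hep3B-KD, and ratios to the 6 partners under the filter were not taken. The 6 ratios share ITGB1, whose log2 fold change was -1.48, while the lowest of a partner was -0.36 (ITGA2). Lower ratios to all 6 thus followed from the fall of ITGB1 and are not 6 separate results. For ITGAV the ratio of ITGB1 was 5.29, 5.17 and 5.56 in Hep3B-Con and 1.04, 0.990 and 1.09 in Hep3B-KD, so that the 2 mRNAs stood at nearly equal FPKM in Hep3B-KD (log2 difference -2.36). The smallest difference was that for ITGA2, from 14.7 ± 0.447 to 6.77 ± 0.158 (log2 difference -1.12), since ITGA2 fell as well. Those for ITGA1, ITGA5, ITGA6 and ITGA7 were -1.67, -1.63, -1.61 and -1.46. In all 6 ratios the groups did not overlap, and the two-sided exact permutation test gave p = 0.1 for each, also after Benjamini-Hochberg adjustment over the 6, which is the smallest p that 3 against 3 libraries allow. These tests therefore could not pass a threshold of 0.05. ITGAV carried the rise of the sum: without it the other 5 partners summed to 53.8 ± 1.62 FPKM in Hep3B-Con and 55.7 ± 1.21 FPKM in Hep3B-KD, and the groups overlapped.

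**Figure D3:**
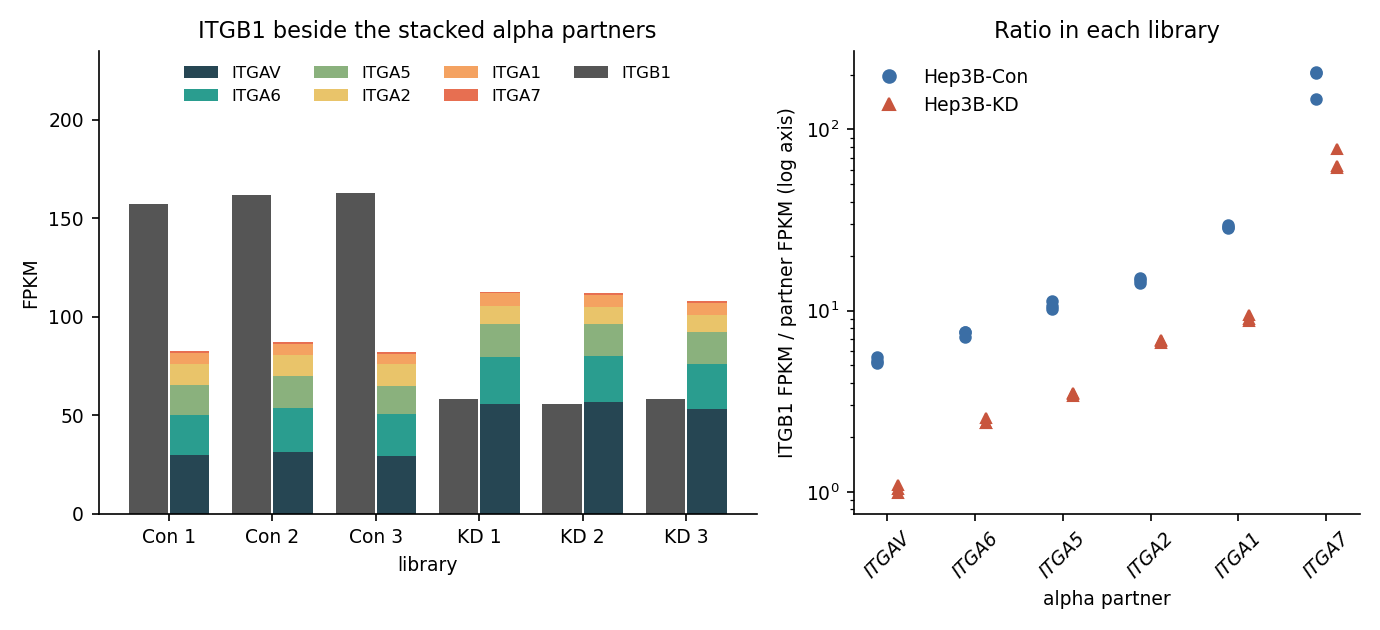
Left, FPKM of ITGB1 (gray bars) beside the stacked FPKM of its 6 tested alpha partners in each library (Con, Hep3B-Con; KD, Hep3B-KD); right, ratio of ITGB1 FPKM to the FPKM of each partner on a log axis, 1 point per library. The gray bar is taller than the stack in the 3 Hep3B-Con libraries and shorter in the 3 Hep3B-KD libraries, and the ITGAV ratio moves from 5.17 to 5.56 down to 0.990 to 1.09.

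ITGAV also changed against its other partners. Its share of the FPKM of all 15 alpha subunits was 34.3% ± 0.213 in Hep3B-Con and 48.1% ± 0.734 in Hep3B-KD (SD, n = 3). The shares of ITGA6 (24.5% ± 0.572 and 20.4% ± 0.193), ITGA5 (17.1% ± 0.442 and 14.5% ± 0.226) and ITGA2 (12.5% ± 0.577 and 7.40% ± 0.208) were lower in Hep3B-KD. For each FPKM of ITGAV there were 1.38 ± 0.0626 FPKM of ITGB5 in Hep3B-Con and 0.640 ± 0.0223 in Hep3B-KD. The ratio of ITGB4 to ITGA6 was 0.409 ± 0.0173 and 0.301 ± 0.0253. These values are FPKM of mRNA; protein and assembled receptors were not measured.

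The talins, which bind beta tails and actin, moved in opposite directions. TLN1 (chr9:35696948-35732395, minus strand), the widely expressed talin, was at 68.1, 69.9 and 68.6 FPKM in Hep3B-Con and at 26.4, 25.5 and 26.7 FPKM in Hep3B-KD. It fell by 1.39 on the log2 scale (SE 0.0258, limma adjusted p = 1.98e-07), 2.62-fold lower and close to the fall of ITGB1. TLN2 (chr15:62390526-62844631, plus strand), its paralogue, was at 2.10, 2.21 and 2.17 FPKM and at 5.47, 5.39 and 5.89 FPKM. The groups of both genes were far apart, and TLN2 had the largest rise of the 27 tested genes, at 1.33 (SE 0.0583, limma adjusted p = 4.97e-06), 2.51-fold higher. TLN1 remained the more abundant: the ratio of TLN1 to TLN2 was 31.9 ± 0.467 in Hep3B-Con and 4.70 ± 0.149 in Hep3B-KD. TLN2 thus made up 3.04% ± 0.0429 and 17.5% ± 0.464 of talin FPKM, while the sum of both talins was 71.0 ± 0.987 and 31.8 ± 0.889 FPKM. Among kindlins, which activate integrins together with talin, FERMT2 was at 7.59 ± 0.331 and 7.74 ± 0.185 FPKM and did not pass (log2 fold change 0.03, SE 0.0452, limma adjusted p = 0.615). FERMT1, the kindlin of epithelia, had 11 to 24 reads a library.

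In the group of ILK, PINCH and parvin, a complex that binds the beta tail and actin, PARVB fell and PARVA rose slightly. PARVB (chr22:43999211-44172949, plus strand) was at 4.72, 4.86 and 4.43 FPKM in Hep3B-Con and at 1.91, 1.83 and 1.80 FPKM in Hep3B-KD. Its groups did not overlap, with a log2 fold change of -1.29 (SE 0.0628, limma adjusted p = 7.55e-06), 2.45-fold lower. PARVA was at 3.53, 3.85 and 3.79 FPKM and at 4.38, 4.39 and 4.15 FPKM. Every Hep3B-KD value of PARVA was above the Hep3B-Con values (log2 fold change 0.21, limma adjusted p = 0.0176), but the call was lost without Hep3B-Con replicate 1, Hep3B-KD replicate 1 or Hep3B-KD replicate 2 (limma adjusted p between 0.0518 and 0.0557) and after centring (0.161). In FPKM, PARVB was above PARVA in every Hep3B-Con library, at 1.26 ± 0.0846 times, and below it in every Hep3B-KD library, at 0.429 ± 0.00946 times. The order in Hep3B-Con depends on the exon lengths used, 7403 bases for PARVB and 12849 for PARVA. In recovered reads PARVB was below PARVA in Hep3B-Con too, at 614, 626 and 546 against 797, 859 and 811. Which parvin was the more abundant in Hep3B-Con is therefore not settled. Both parvins together were at 8.39 ± 0.274 and 6.15 ± 0.179 FPKM.

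LIMS1, the PINCH protein that holds ILK, was at 18.8 ± 0.837 and 19.3 ± 0.323 FPKM and did not pass (log2 fold change 0.04, limma adjusted p = 0.429), and its level is uncertain because near-identical copies of it (LIMS3 and LIMS4) could share its reads. LIMS2, the other PINCH protein, was at 0.181, 0.156 and 0.205 FPKM and at 0.409, 0.462 and 0.249 FPKM, on 23 to 63 reads a library, under the filter. ILK itself could not be read. It was listed at 0.114, 0.198 and 0.121 FPKM in Hep3B-Con and at 0.525, 0.268 and 0.311 FPKM in Hep3B-KD, on 7 to 29 reads a library. Of its exonic bases 78.5% lie in exons of other genes, above all of TAF10 on the opposite strand, which was listed at 0.518 FPKM on average. Genes with a shared part of over 50% up to 80% had a median of 0.224 FPKM and 66.5% of them were under the filter, against a median of 3.18 FPKM and 32.6% for the 8671 genes with 0 shared bases. Of the called genes, PXN (12.4%) and ITGB6 (20.6%) shared over 10% of their exonic bases with other genes.

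**Figure D4:**
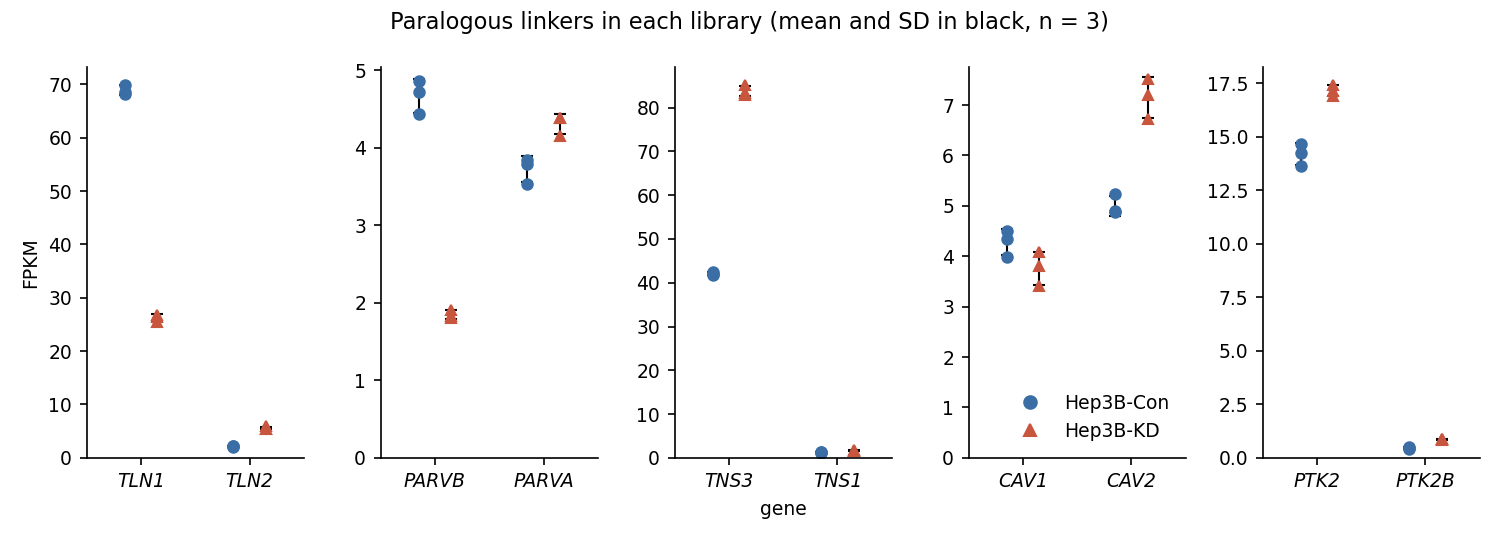
FPKM of paralogous linkers in each library, with circles for Hep3B-Con, triangles for Hep3B-KD, and mean and SD in black (n = 3 libraries per group); each panel has its own linear axis from 0. TLN1 and PARVB are lower in Hep3B-KD while TLN2 and PARVA are higher, and TNS3 is at 42.1 FPKM on average in Hep3B-Con against 83.8 FPKM in Hep3B-KD.

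All 4 adaptors were called, 2 higher and 2 lower, against 59.9% of all genes tested. After centring on the median log ratio, 1 was called higher and 2 lower. TNS3 (chr7:47275154-47582558, minus strand), a tensin that binds beta tails and actin, was at 41.8, 42.5 and 41.9 FPKM in Hep3B-Con and at 83.4, 82.8 and 85.2 FPKM in Hep3B-KD. The groups were far apart, and the log2 fold change of 0.99 (SE 0.0197, limma adjusted p = 2.56e-07) lay just under a fold change of 2. TNS1, its paralogue, was at 1.29 ± 0.125 and 1.66 ± 0.0895 FPKM (log2 fold change 0.34, limma adjusted p = 0.0309), with no overlap. Its call was lost without Hep3B-Con replicate 1 or 2 or without any of the Hep3B-KD replicates (limma adjusted p between 0.0559 and 0.0959), and after centring (0.101). BCAR1, the scaffold p130Cas that is phosphorylated at adhesions, was at 20.9, 21.2 and 20.4 FPKM and at 14.4, 14.3 and 14.95 FPKM. Its values did not overlap between groups (log2 fold change -0.51, SE 0.0311, limma adjusted p = 1.77e-05), and whether its annotated copies BCAR1P1 and BCAR1P2 share its reads was not tested. PXN, which encodes paxillin, a docking protein for focal adhesion kinase, fell from 9.68 ± 0.336 to 8.36 ± 0.250 FPKM (log2 fold change -0.21, SE 0.0421, limma adjusted p = 0.00469).

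Among the kinases, PTK2, which encodes focal adhesion kinase, was at 13.6, 14.7 and 14.2 FPKM in Hep3B-Con and at 17.1, 17.4 and 16.9 FPKM in Hep3B-KD. The rise was separate from the spread of the replicates, at 0.27 (SE 0.0354, limma adjusted p = 0.000599), and kept its call under each of the 16 alternatives. PTK2B, the related kinase PYK2, was at 0.459, 0.515 and 0.417 FPKM and at 0.834, 0.863 and 0.874 FPKM, on 55 to 115 reads a library. Its groups did not overlap (log2 fold change 0.77, SE 0.186, limma adjusted p = 0.0109), and the call was lost with quantile normalization (0.0770). SRC, which acts with focal adhesion kinase, overlapped between groups at 5.30 ± 0.276 and 4.96 ± 0.293 FPKM (log2 fold change -0.10, limma adjusted p = 0.234), but was called lower after centring (limma adjusted p = 0.0331) and with quantile normalization (0.0162).

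The caveolins, membrane proteins that link integrins to caveolae and to SRC family kinases, differed from each other. CAV2 was at 5.23, 4.88 and 4.90 FPKM in Hep3B-Con and at 7.21, 7.52 and 6.72 FPKM in Hep3B-KD, without overlap (log2 fold change 0.51, SE 0.0571, limma adjusted p = 0.000306). CAV1 was at 4.35, 3.99 and 4.50 FPKM and at 3.41, 3.80 and 4.07 FPKM. The highest Hep3B-KD value of CAV1 exceeded the lowest Hep3B-Con value, and it did not pass (log2 fold change -0.18, SE 0.0816, limma adjusted p = 0.0943), though it was called lower after centring (0.0220) and with quantile normalization (0.0145). The ratio of CAV2 to CAV1 was 1.17 ± 0.0726 and 1.91 ± 0.239.

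Genes that work with the integrins were counted in 5 lists, and for those named the log2 fold change and the limma adjusted p stand in parentheses. Of 52 other focal adhesion linkers, 45 were tested, 17 rose and 17 fell, with a median of -0.02 on the log2 scale, all genes being at 0.11 (10 rose and 25 fell after centring). The 2 largest falls were in VASP, an actin-elongating protein, from 36.3 ± 2.77 to 7.56 ± 0.474 FPKM (log2 fold change -2.25, limma adjusted p = 1.25e-06), and in ENAH, its relative, from 52.4 ± 0.581 to 19.8 ± 0.309 FPKM (-1.40, 1.25e-07). The 2 largest rises were in KANK1, a talin-binding protein, from 7.26 ± 0.118 to 14.2 ± 0.408 FPKM (0.95, 2.75e-06), and in GIT1, a paxillin-binding protein, from 6.47 ± 0.338 to 10.9 ± 0.435 FPKM (0.74, 3.47e-05). Of the 52, 75.6% of those tested were called, against the background of 59.9%.

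Of 37 integrin ligands, 26 were tested, 15 rose and 10 fell, with a median log2 fold change of 0.35 (13 rose and 10 fell after centring). The share called was 96.2%, against 59.9% of all genes (36.1% higher and 23.8% lower). VTN, the vitronectin bound by ITGAV integrins, rose from 86.0 ± 0.370 to 161 ± 0.506 FPKM (0.91, limma adjusted p = 1.25e-07), and CDH1, the E-cadherin bound by the ITGAE integrin, rose from 17.1 ± 0.480 to 33.0 ± 0.409 FPKM (0.95, limma adjusted p = 1.32e-06). ITGB7, the beta subunit of that integrin, had at most 3 reads in any library, a level made uncertain by its shared exonic bases. THBS1, a matrix thrombospondin, fell from 174 ± 0.677 to 52.5 ± 0.643 FPKM (-1.73, limma adjusted p = 3.82e-08), and TGFB1, whose latent form binds ITGAV integrins, fell from 44.7 ± 4.43 to 16.8 ± 0.631 FPKM (-1.40, limma adjusted p = 8.44e-06).

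Of 15 membrane partners of integrins, 12 were tested, 6 rose and 5 fell (4 and 6 after centring), a share of 91.7% called against 59.9% of all genes. CD81, a tetraspanin, fell from 15.7 ± 0.385 to 4.72 ± 0.359 FPKM (-1.71, limma adjusted p = 2.12e-06), and SLC3A2, the CD98 heavy chain that binds beta tails, fell from 72.4 ± 1.72 to 29.1 ± 0.214 FPKM (-1.31, limma adjusted p = 1.78e-07). The 2 largest rises were in SDC1, a syndecan (0.63, limma adjusted p = 4.06e-05), and PLAUR, the urokinase receptor (0.56, limma adjusted p = 0.00489). Of 18 genes of integrin traffic, 16 were tested, 9 rose and 4 fell (5 and 6 after centring), a share of 81.2% called against 59.9% of all genes. DAB2, an endocytic adaptor that binds beta tails, fell from 28.9 ± 0.322 to 8.30 ± 0.0793 FPKM (-1.79, limma adjusted p = 9.11e-08), and HAX1 from 63.5 ± 0.268 to 32.3 ± 0.554 FPKM (-0.97, limma adjusted p = 3.48e-07). RAB4A and RAB5A, small GTPases of the early and recycling endosome, rose by 0.83 and 0.74 (limma adjusted p = 2.19e-05 and 3.78e-06). The 3 leukocyte alpha subunits ITGAM, ITGAX and ITGAD were under the filter.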

How the data were processed

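RNA of 3 Hep3B-Con and 3 Hep3B-KD samples was sequenced from TruSeq libraries. The authors deposited FPKM values for 29908 Ensembl genes, 1 column per library. The submitters' processing notes name TopHat2 2.0.12, Bowtie2 2.0.6 and GRCh37, while the counter and annotation are not given in the sources used here. All identifiers were found in GENCODE release 29 (GRCh38), and FPKM times its exon length and the library total gave reads within 0.01 of a whole number for 100% of values, so coordinates are of that release. Library strand is not stated, so overlapping genes cannot be separated by strand.

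Groups came from sample titles. The 14221 genes that averaged 0.5 FPKM or more were tested as log2(FPKM + 0.1) with limma 3.58.1 (eBayes with trend) in R 4.3.3, with Benjamini-Hochberg adjustment, so fold changes of low genes are understated. Where a symbol had several rows, the row with the highest mean was used. The fit was tested on simulated data in which few genes changed, equally in both directions, so that test cannot address the dependence on scaling. Summaries and figures used Python 3.11.15 with pandas 2.3.3, numpy 2.4.6 and matplotlib 3.10.9. Members and lists were chosen with earlier results of these data known. Every member could be named, and from each list the 2 largest rises and falls past an adjusted p of 0.05, besides DAGLA and the cell type markers. The 16 alternatives were each library left out in turn, voom on the recovered reads (8975 genes called, against 8521), the replicate number as a block, eBayes without trend, quantile normalization, centring of each library on its median log ratio, an equal FPKM sum per library, pseudocounts of 0.01 and 1, a filter at 1 FPKM and no filter.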

Additional observations from a re-analysis of the deposited data

How the results depend on the processing

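Of 428 values (27 tested genes under up to 16 alternatives), 374 kept direction and side of the threshold, 44 lost the call, 4 gained it and 6 reversed, and 14 of the 27 genes kept theirs throughout. The 13 members called higher became 7 after centring on the median log ratio and 7 with quantile normalization, and between 7 and 11 with a library left out. The log2 ratio of ITGB1 to its alpha partners (-1.89) was -1.77 with quantile normalization and between -1.91 and -1.86 with a library left out. It is a ratio within a library, so rescaling, centring, eBayes without trend, the replicate block and voom gave it no separate value. The reversals were all in genes not called: with a library left out, ITGA7 was between -0.0996 (without Hep3B-Con replicate 3) and 0.10 (without Hep3B-Con replicate 1), with 0.063 without Hep3B-KD replicate 1, and over all alternatives its lowest value was -0.32 (quantile normalization). FERMT2 was at -0.075 after centring, -0.061 with quantile normalization and between -0.00089 (without Hep3B-Con replicate 3) and 0.061 with a library left out, and LIMS1 at -0.066 after centring. The replicate number as a block left 11 members called higher and 8 lower and gave ITGB1 -1.48 (limma adjusted p = 5.83e-05); ITGA6 (0.0694) and ITGAE (0.101) lost their calls. Same-numbered libraries did not deviate together (correlations of -0.0134, -0.0656 and -0.0011), so the numbers were not taken as pairs. Counts of members called lower, of all genes called and of each list called stayed within 1.5 times. Genes under 0.5 FPKM, 14 of the 41, rest on few reads and are not resolved at this depth. All calls rest on 1 hairpin, and ILK, LIMS1, ITGB3 and ITGB7 are limited by shared sequence.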
